A study of Mus musculus with 3 samples.

Results

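The chloride channel families CLCN and CLIC were examined in the choroid plexus epithelium (CPE) of the mouse through 10 genes, *Clcn2*, *Clcn3*, *Clcn4*, *Clcn5*, *Clcn6*, *Clcn7*, *Clic1*, *Clic4*, *Clic5* and *Clic6*. Every probe that the scanner files name for these genes was taken, with *Clcn4* written there as Clcn4-2, which gave 18 of the 41174 probes on the array. Of the 10 genes, 6 had several probes and 4 had a single probe. CPE of 3 healthy adult C57BL/6 mice, for which the labels name no genetic change or treatment, was laser dissected from frozen brain sections of the lateral ventricles. The RNA was amplified and labelled with the red dye Cy5. Each mouse had an Agilent whole-genome array of its own, with a common reference RNA of wild type mouse retinal pigment epithelium and choroid (RPE/choroid) in the green dye Cy3. The dyes were not swapped and the reference was a single RNA, so a dye bias of a probe stayed in each ratio and the spread of the reference between animals was not measured.

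The CPE secretes cerebrospinal fluid by moving sodium, chloride, bicarbonate and water from blood to ventricle. The CLC proteins encoded by the *Clcn* genes fall into chloride channels of the plasma membrane and exchangers that trade chloride for protons across the membranes of endosomes and lysosomes, where they work beside the proton pump. The CLIC proteins are unlike the CLC proteins in sequence, are related to glutathione transferases, and occur both dissolved in the cytoplasm and at membranes, often close to the actin cytoskeleton. *Clic6*, also called parchorin, is known from epithelia that secrete water.

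The arrays differed in signal. The share of probes well above background, as flagged by the scanner software, was 58.5%, 46.0% and 85.6% in the CPE channel of mice 1, 2 and 3, and 71.0%, 68.6% and 84.2% in the reference channel. The dissected tissue carried the markers of its label. Of 11 tested CPE markers 10 were higher in CPE, with a median log2 ratio of 3.21, led by *Kl* at 5.42 and *Htr2c* at 5.09, and *Otx2* lay at 0.14. Of 11 tested markers of RPE and melanocytes 10 were lower, with a median of -5.26, led by *Tyrp1* at -8.17 and *Rpe65* at -6.71, and *Tyr* was not well above background in CPE on any array. All 8 tested photoreceptor markers were lower, with a median of -4.78, led by *Nrl* at -6.37 and *Prph2* at -5.46. Endothelial markers were all well above background in CPE. Their summed raw intensity, before normalization, ran from 15143 to 28967 in CPE against 10817 to 13548 in the reference. After normalization their ratios ran from -0.54 to 1.21 with a median of 0.55. Of the 10, 2 were higher, *Eng* and *Plvap*, both at 1.21. Of 3 tested markers of ependyma, the ciliated lining of the ventricles, 2 were higher, *Dynlrb2* at 4.42 and *Foxj1* at 2.98, and *Rarres2* lay at -0.74. The summed raw intensity of this list ran from 17023 to 23012 in CPE against 4578 to 5402 in the reference. Whether the signals of this list came from ependyma or from the CPE itself was not tested. In stroma 5 of 6 markers were lower, in macrophages 4 of 6 and in neurons 4 of 8, with none higher. Lower here is relative to the reference and does not mean absent from CPE. All 6 stromal markers were well above background in CPE on each array. Their summed raw intensity ran from 23501 to 37774 in CPE against 77597 to 95170 in the reference. The part of these other cells in the results for chloride channels was not tested, and in tissue RNA fewer cells of a type and less RNA per cell cannot be told apart.

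*Clic6* stood out among the 10 genes, and *Clcn3* was the other gene with probes past the threshold. The measure was the normalized log2 ratio of CPE over reference in the same spot, tested with limma. The threshold was an adjusted p under 0.05 together with a change of at least 2-fold. Intensities of probes are given raw, before background correction and normalization, so they need not match the ratio. Of the 18 probes, 15 were bright enough to test, and 12 of them stood well above background in CPE and reference on each of the 3 arrays. The test called 3 of these 15 probes, against 17.3% of all 25847 tested probes. It called 1 probe higher in CPE, against 7.09% of all tested probes, and 2 lower, against 10.2%. With no limit on fold, 8 of 15 member probes had an adjusted p under 0.05, against 39.2% of all tested probes. The median log2 ratio was 0.03 over the member probes and -0.04 over all tested probes.

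**Figure D1:**
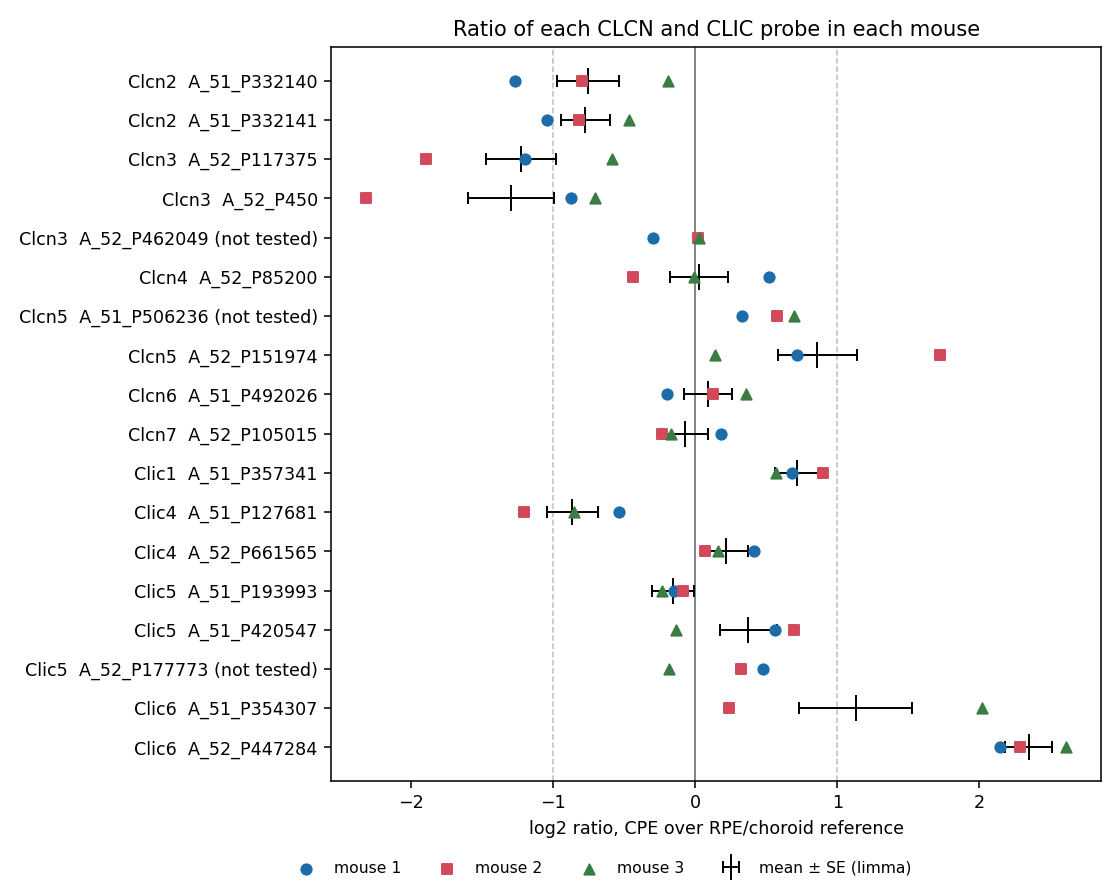
Log2 ratio of CPE over the RPE/choroid reference (x axis) of each CLCN and CLIC probe (y axis) in mouse 1, 2 and 3, with crosses for the limma mean ± SE of tested probes and dashed lines at 2-fold. The 3 points of the *Clic6* probe A_52_P447284 lie between 2.15 and 2.61, apart from all points of other genes, and those of the tested *Clcn3* probes all lie below -0.5.

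By the brightest probe of each gene, the ratios ran in the order *Clic6*, *Clcn5*, *Clic1*, *Clic5*, *Clcn6*, *Clcn4*, *Clcn7*, *Clcn2*, *Clic4* and *Clcn3*. The ranges over mice of neighbours in this order overlapped, except between *Clic6* and *Clcn5* and between *Clcn7* and *Clcn2*. The classes of expression give a second view. They rank the level of a probe in the CPE channel among all probes of the array. Probes past the 90th percentile are called high, those between the 50th and 90th moderate, those between the 10th and 50th low, and the remainder very low. The classes do not order genes by abundance, since probes hybridise unequally. The high class held 5 member probes of 4 genes, *Clcn4*, *Clic1*, *Clic4* and *Clic6*. A further 8 probes were moderate, 4 were low and 1 was very low. Of the 18 probes, 10 stayed in their class in every mouse, and 4 genes had probes in several classes.

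**Figure D2:**
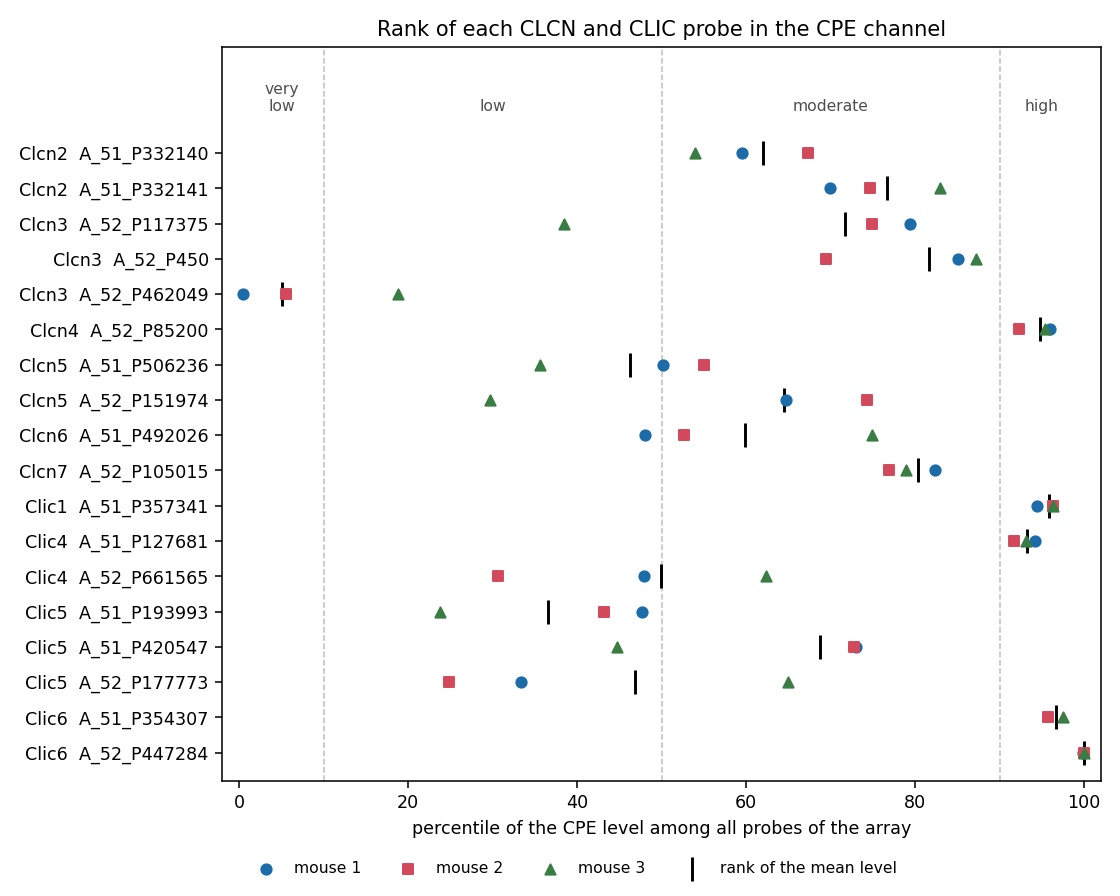
Percentile of the level in the CPE channel among all probes of the array (x axis) for each CLCN and CLIC probe (y axis), in each mouse and for the mean level, with dashed lines at the borders of the 4 classes. The probes of *Clcn4*, *Clic1* and *Clic6* lie above the 90th percentile in every mouse shown, while several probes of *Clcn3*, *Clcn5*, *Clcn6*, *Clic4* and *Clic5* cross a border between mice.

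The *Clic6* transcript was among the brightest signals of the array. Its probe A_52_P447284 (chr16:92429977-92430036 on mouse build mm8, + strand) had CPE intensities of 63769, 64521 and 59456 in mice 1, 2 and 3, against 5630, 6490 and 5435 in the reference. All 3 CPE values lay far above all 3 reference values, and the CPE spot of mouse 2 was saturated, so that its value is a lower limit. The log2 ratio was 2.15, 2.28 and 2.61, with a mean of 2.35 ± 0.16 (SE, n = 3), a 5.09-fold higher signal in CPE with a limma adjusted p of 5.44e-05. The probe lay at percentile 99.87, 99.995 and 99.95 in the mice. It was called under every alternative tried, with ratios from 2.21 to 3.28.

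The other *Clic6* probe, A_51_P354307 (chr16:92429009-92429068, mm8, + strand), lies 968 bases toward the 5′ end of the gene. Its CPE intensities of 21943, 3510 and 7031 spread far more, against 2433, 1979 and 1031 in the reference. The spot of mouse 1 was flagged as an outlier by the scanner software and left out, which left ratios of 0.24 in mouse 2 and 2.02 in mouse 3. Their mean of 1.13 ± 0.40 (SE, n = 2) missed the threshold, with a limma adjusted p of 0.0639. With the flagged spot kept, its ratio was 1.94 and the mean rose to 1.40, past the threshold with an adjusted p of 0.0134. The call was also made when the test was limited to probes bright in CPE and reference alike (adjusted p of 0.0431), with median centring in place of loess (1.60, adjusted p of 0.0111) and without mouse 2, where 2.02 rests on mouse 3 alone. The probe lay at percentile 96.6.

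*Clic1*, which codes for a small protein that moves between cytoplasm and membranes, had its only probe, A_51_P357341 (chr17:34666698-34666757, mm8, + strand), in the high class at percentile 95.9. The CPE intensities were 4146, 4009 and 4851, against 1254, 1455 and 1794 in the reference. The ratio was 0.68, 0.90 and 0.57, above 0 in all mice and close together. The mean of 0.72 ± 0.16 (SE, n = 3), or 1.64-fold, had a limma adjusted p of 0.00937 but stayed under 2-fold. With median centring the ratios were 1.84, 1.89 and 0.50, and their mean of 1.41 passed the threshold with an adjusted p of 0.0109.

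*Clic4*, a relative of *Clic1* known for a part in the formation of epithelial and endothelial tubes, gave different ratios at a bright and a dim probe. The 3′ probe A_51_P127681 (chr4:134486577-134486636, mm8, - strand) was in the high class, at percentile 93.2, with CPE intensities of 3960, 1734 and 2688 against 2634, 2728 and 2516 in the reference. Its normalized ratio of -0.54, -1.21 and -0.85 was below 0 in all mice, though the raw CPE intensity was above the reference in mice 1 and 3. The mean was -0.87 ± 0.18 (SE, n = 3) with a limma adjusted p of 0.00737, under 2-fold. It passed the threshold without mouse 1, at -1.03, and came to -0.16 with median centring, with an adjusted p of 0.782. The 5′ probe A_52_P661565 (chr4:134498123-134498182), which lies 11546 bases away, was dim, with CPE intensities of 124, 88.4 and 861 against 141, 128 and 414, and was low by class, at percentile 49.9. Its ratio was 0.41, 0.07 and 0.16, with a mean of 0.21 ± 0.16 (SE, n = 3) and an adjusted p of 0.319.

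The difference between probes of a gene was tested within arrays, in a limma fit over 9925 pairs of probes. Of 5 member pairs this called 1, against 13.1% of all pairs. It was the pair of *Clic4*, where the 3′ probe lay 0.95, 1.27 and 1.01 below the 5′ probe on the log2 scale in mice 1, 2 and 3. The mean difference was -1.08 ± 0.19 (SE, n = 3), with an adjusted p of 0.0129. The 5′ probe was close to background in mice 1 and 2 and well above it in CPE on 2 of 3 arrays. A ratio near background is pulled toward 0, so the size and the call of this difference are uncertain. The part of the dim signal in it was not tested. The call was lost with median centring, at -0.25, without mouse 2, at -0.98, and without mouse 3, at -1.11 with an adjusted p of 0.0516. For *Clic6* the 5′ minus 3′ difference was -2.04 in mouse 2 and -0.59 in mouse 3, with a mean of -1.32 over these arrays and an adjusted p of 0.0689. The 3′ spot of mouse 2 was saturated in CPE, so its difference may be larger than the value given. Without mouse 3 the pair was called on mouse 2 alone, at -2.04 with an adjusted p of 0.0464. Mouse 2 was lower at the 5′ end in general. Of 9281 pairs over all genes, 67.8% had a 5′ minus 3′ difference in mouse 2 below the mean of that pair in the other mice. The same share was 40.1% for mouse 1 and 38.8% for mouse 3. Over all pairs, the median gap of mouse 2 to the other mice was -0.24. The part of this trend in the *Clic6* pair was not tested.

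**Figure D3:**
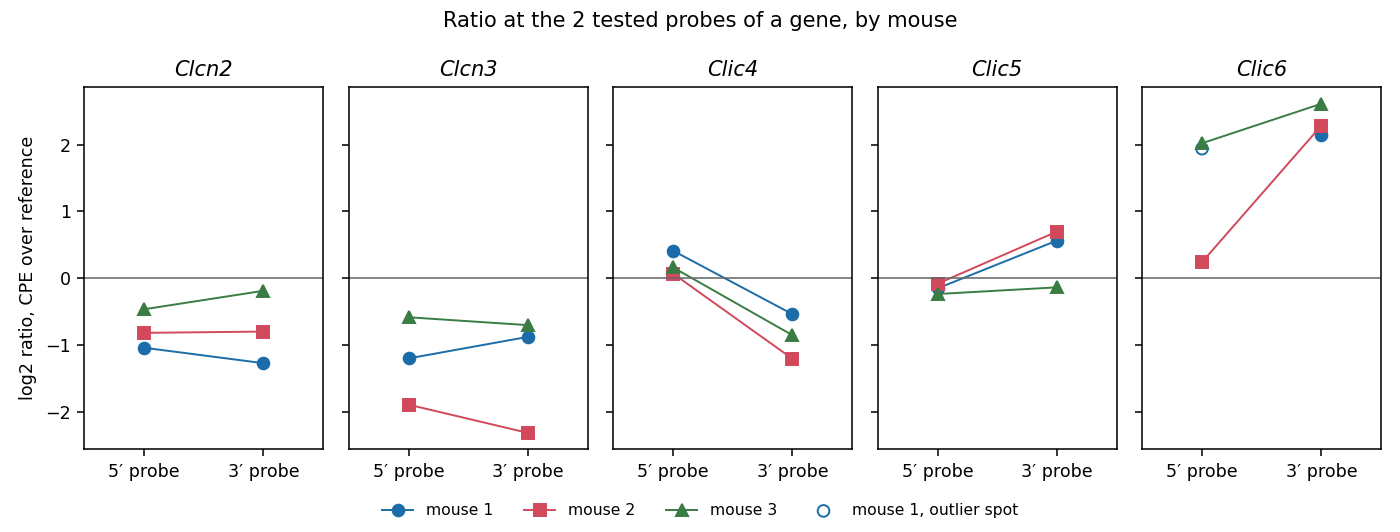
Log2 ratio of CPE over reference (y axis) at the 5′ and the 3′ probe of the 5 genes with 2 tested probes (x axis), with a line for each mouse and an open circle for the flagged spot of mouse 1. The lines of *Clic4* fall in all 3 mice, and that of *Clic6* rises from 0.24 to 2.28 in mouse 2.

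*Clic5*, whose protein sits with ezrin at the base of microvilli and stereocilia, was well above background in CPE and reference on each array at its 3′ probe alone. Its 3′ probe A_51_P420547 (chr17:43743085-43743144, mm8, + strand) was moderate, at percentile 68.8, with a ratio of 0.56, 0.70 and -0.14. The mean of 0.37 ± 0.20 (SE, n = 3) had a limma adjusted p of 0.176, and the mice lay on both sides of 0. The 5′ probe A_51_P193993 (chr17:43740672-43740731) was low, at percentile 36.6, with a ratio of -0.15, -0.083 and -0.24 and an adjusted p of 0.445. A further probe, A_52_P177773 (chr17:43714472-43714531), was well above background in mouse 3 alone and was not tested. The pair of tested probes differed by -0.53 ± 0.22 (SE, n = 3), with an adjusted p of 0.136.

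Among the *Clcn* genes, *Clcn2* codes for a chloride channel of the plasma membrane that opens at negative voltage. Its probes A_51_P332140 (chr16:20616599-20616659, mm8, - strand) and A_51_P332141 (chr16:20616720-20616779) start only 121 bases apart and do not stand for independent parts of the transcript. Both were moderate, at percentiles 61.9 and 76.7. The ratios were -1.27, -0.80 and -0.19 at the first probe and -1.04, -0.82 and -0.46 at the second. All 6 values were below 0, and mouse 3 was the nearest to 0 at both. The means of -0.75 ± 0.22 and -0.77 ± 0.17 (SE, n = 3) had limma adjusted p-values of 0.0289 and 0.00994 and stayed under 2-fold. Without mouse 3 the first passed the threshold, at -1.03, and with median centring the means were -0.47 and -0.36, with adjusted p-values of 0.278 and 0.391.

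*Clcn3*, *Clcn4* and *Clcn5* code for exchangers of chloride and protons in endosomes, and they ran in different directions. *Clcn3* was lower in CPE at both tested probes. The 3′ probe A_52_P450 (chr8:63803576-63803635, mm8, - strand) had CPE intensities of 1411, 261 and 1616, against 1344, 1158 and 1334 in the reference. This makes mouse 2 the low value. In mice 1 and 3 the raw CPE intensity was above the reference, and the ratio was below 0 after normalization. The ratio of this probe was -0.88, -2.31 and -0.70. Its mean of -1.30 ± 0.30 (SE, n = 3), 2.46-fold lower, had a limma adjusted p of 0.0122. The 5′ probe A_52_P117375 (chr8:63815017-63815076) had ratios of -1.20, -1.89 and -0.58. Its mean of -1.23 ± 0.24 (SE, n = 3), 2.34-fold lower, had an adjusted p of 0.00646. On the array of mouse 3 this probe read 413 in the reference, which was the same RNA throughout, against 1129 and 1217 on the other arrays.

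The size of the *Clcn3* difference depended on mouse 2 and on the scaling. Without mouse 2 the means were -0.79 at the 3′ probe and -0.89 at the 5′ probe, still with adjusted p-values of 0.0133 and 0.00990 but under 2-fold. With median centring they were -0.78 and -0.65, with adjusted p-values of 0.146 and 0.153, and the 3′ probe then had a ratio above 0 in mouse 1, at 0.17. The 6 markers of smooth muscle and pericytes had a mean ratio of -1.26 in mouse 2 against -0.37 and -0.41 in mice 1 and 3. Of these, 4 were lowest in mouse 2, where *Acta2* lay at -3.21, *Myh11* at -1.88, *Tagln* at -1.73 and *Rgs5* at -1.55. *Tagln* was nearly as low in mouse 3, at -1.69. *Pdgfrb* at 0.86 and *Cnn1* at -0.03 had their highest ratio in mouse 2. Low ratios in mouse 2 were not limited to this list. In the list of endosome and lysosome partners given below, *Atp6v1e1* had ratios of -0.16, -1.61 and -0.055 in mice 1, 2 and 3. *Atp6v1a* had 0.23, -1.08 and 0.13, while *Mcoln1* was highest in mouse 2, at 1.91. The mean ratio of the partners was 0.36 in mouse 2 against 0.71 and 0.58 in mice 1 and 3. The part of these markers and partners in the *Clcn3* values was not tested. The probes were moderate, at percentiles 81.6 and 71.7, and in mouse 3 the 5′ probe fell to 38.4. A further *Clcn3* probe, A_52_P462049 (chr8:63831047-63831106), lay at percentile 5.08 and was well above background in mouse 3 alone, so it was not tested.

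*Clcn4* was bright but unequal between mice. Its probe A_52_P85200 (chr7:6891796-6891855, mm8, - strand) had CPE intensities of 5623, 1832 and 3891, against 1810, 1758 and 2101 in the reference, and ranked at percentile 94.8, at 92.3 in mouse 2 and 95.9 in mouse 1. The ratio was 0.52, -0.44 and -0.0076, on both sides of 0. The mean of 0.03 ± 0.20 (SE, n = 3) had a limma adjusted p of 0.936, and it was 0.72 with median centring, with an adjusted p of 0.176. *Clcn5*, the exchanger of the endosomes that take up filtered protein in the kidney, had ratios of 0.72, 1.72 and 0.14 at probe A_52_P151974 (chrX:6310783-6310842, mm8, - strand). All were above 0, and mouse 2 was the highest. The mean of 0.86 ± 0.28 (SE, n = 3) had an adjusted p of 0.0436 and stayed under 2-fold. Without mouse 2 it was 0.43, with an adjusted p of 0.182, and without mouse 3 it was 1.22 and passed the threshold. The other *Clcn5* probe, A_51_P506236 (chrX:6316621-6316680), was not well above background in the reference on any array and was so in CPE in mice 1 and 3. Its mean log2 level after normalization was 7.42 in CPE and 6.88 in the reference, and the difference was not tested.

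*Clcn6* and *Clcn7* code for the exchangers of late endosomes and lysosomes. Promoter sequence is shown for these genes because the letters TCACGTGA, an element known from genes of the lysosome, were found by a search of both strands of RefSeq promoters, 300 bases each on build GRCm38.p6. The element is its own reverse complement and holds the shorter CACGTG. It was found in 2 of 13 promoters of 9 members, 1 each for *Clcn6* and *Clcn7*, and in 0.974% of all 32851 promoters. CACGTG was found in 3 of 13, these 2 among them, and in 7.15% of all promoters. A match is a description of the letters and not a site of binding. The stretches run from 100 bases before the start of transcription through the first 20 bases of the transcript, 5′ to 3′, with the element in capitals, at chr4:148038794-148038913 on the - strand for *Clcn6* and chr17:25133291-25133410 on the + strand for *Clcn7*.
Clcn6: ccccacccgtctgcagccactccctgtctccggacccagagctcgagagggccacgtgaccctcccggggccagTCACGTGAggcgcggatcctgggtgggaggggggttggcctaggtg
Clcn7: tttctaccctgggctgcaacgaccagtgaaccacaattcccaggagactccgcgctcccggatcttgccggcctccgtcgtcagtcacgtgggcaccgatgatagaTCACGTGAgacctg
The element ends before the start of transcription in *Clcn6* and lies just after it in *Clcn7*.

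Neither gene passed the threshold. The *Clcn6* probe A_51_P492026 (chr4:146850385-146850444, mm8, - strand) had ratios of -0.20, 0.12 and 0.35, with a mean of 0.09 ± 0.17 (SE, n = 3) and a limma adjusted p of 0.703. It was moderate, at percentile 59.9, and was not well above background in CPE of mouse 2. The *Clcn7* probe A_52_P105015 (chr17:24889003-24889062, mm8, + strand) lay at percentile 80.3 and had ratios of 0.18, -0.24 and -0.17. Its mean of -0.07 ± 0.16 (SE, n = 3) had an adjusted p of 0.749. The sign of both means depended on the processing. *Ostm1*, the partner protein of the *Clcn7* exchanger, had a ratio of -0.48 ± 0.16 (SE, n = 3) with an adjusted p of 0.0517.

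The spread between mice was compared with the spread of the reference, a single RNA on all arrays, for the 12 member probes bright enough in CPE and reference on each array. The SD of the log2 level over arrays was larger in the CPE channel for 6 of the 12, against 48.0% of 17951 probes. This count moved to 9 of 12 with median centring of each channel, where 93.8% of all probes had the larger SD in CPE, and to 9 of 12 with quantile normalization, against 78.8%.

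Genes that share a pathway with the members were taken by the brightest probe of each gene. Over all 15366 genes tested, 8.89% were higher and 11.1% lower in CPE, with a median ratio of -0.01. Among other CLC and CLIC genes and accessory subunits, *Clic3* lay at 1.42 ± 0.21, *Hepacam*, which codes for a partner of the *Clcn2* channel, at 1.37 ± 0.17, and *Bsnd*, which codes for the accessory subunit barttin, at 1.03 ± 0.22 (SE, n = 3 each). The limma adjusted p-values were 0.00189, 0.000855 and 0.00868. *Bsnd* was no longer called with median centring, at 0.93, without mouse 1, at 0.87, or without mouse 2, at 0.87. The reference was well above background for *Hepacam* on 1 of 3 arrays, so that this gene entered the test through CPE and the size of its ratio is uncertain. *Clcn1* was too dim to test.

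Of 18 tested genes of other chloride channel families, 1 was higher and 3 were lower, with a median of 0.10. *Lrrc8a*, which codes for the obligatory subunit of the anion channel that opens on cell swelling, lay at 1.04 ± 0.17 (SE, n = 3) with an adjusted p of 0.00280, and it was no longer called without mouse 1. The lower genes were *Best2* at -2.09, a bestrophin, *Ano2* at -1.42, a chloride channel gated by calcium, and *Ttyh1* at -1.29, which was no longer called with median centring, at -0.68. Photoreceptors are known to use *Ano2*, and their markers were lower in the same arrays, as given above, but their part in this ratio was not tested. *Cftr*, the chloride channel of many secretory epithelia, had a ratio of 0.23 with an adjusted p of 0.285 and was well above background in CPE in 1 of 3 mice. Of 12 partners of endosomes and lysosomes, 3 were higher and 0 lower, with a median of 0.54. These were *Atp6v0a1* at 2.19, a subunit of the proton pump, *Mcoln1* at 1.52 and *Tpcn1* at 1.07, both cation channels of these compartments. *Tpcn1* was no longer called without mouse 1, at 0.96.

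**Figure D4:**
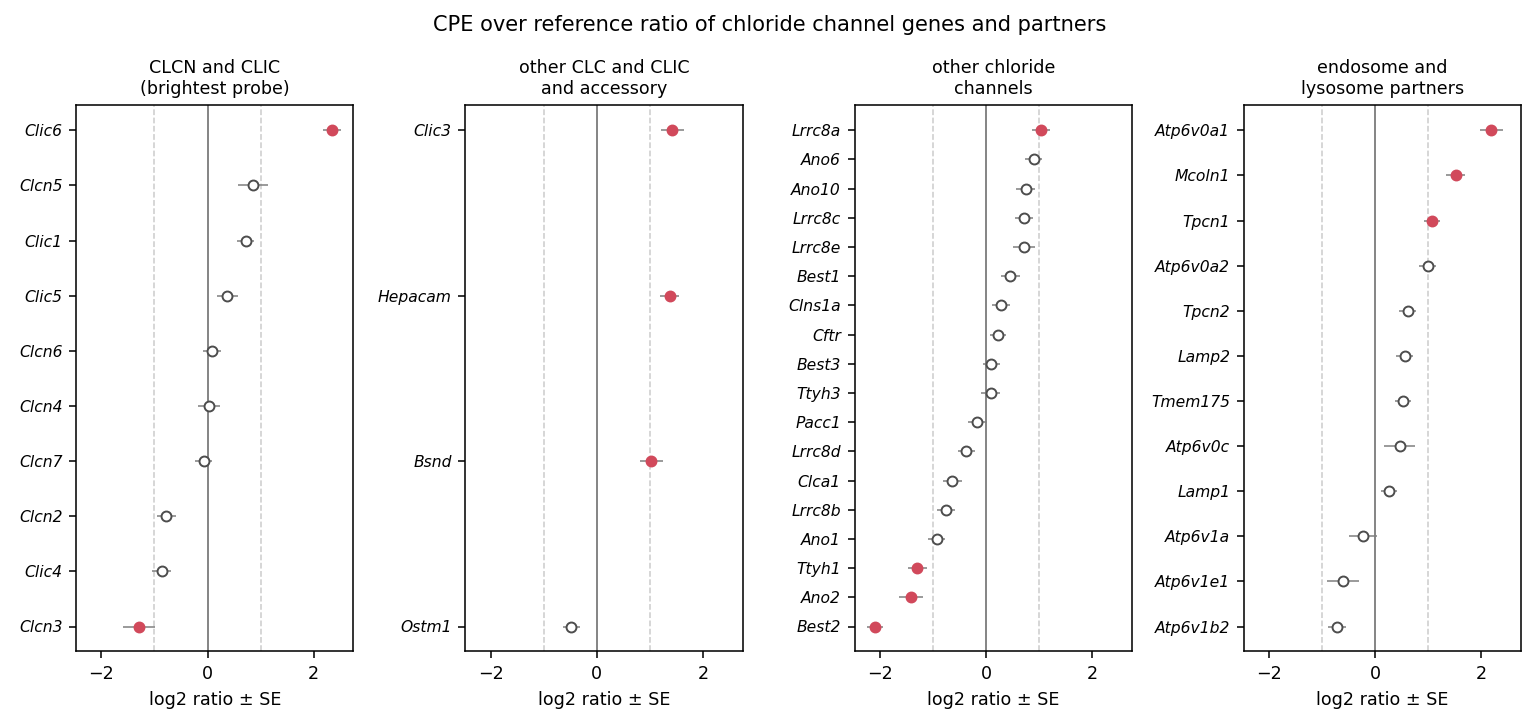
Log2 ratio of CPE over reference with its SE (x axis) for the 10 CLCN and CLIC genes and 3 further lists of genes (y axes), each by its brightest probe, with filled points for genes past the threshold and dashed lines at 2-fold. Filled points lie on both sides of 0 among the CLCN and CLIC genes and the other chloride channels, and only on the right among the accessory genes and the partners.

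Over the 12214 genes bright enough in CPE and reference on each array, those with the ratios nearest to *Clic6* in the 3 mice were *Trpm3*, *Cdkn1c* and *Folr1*, at Euclidean distances of 0.278, 0.337 and 0.346 on the log2 scale. Their ratios in mice 1, 2 and 3 were 2.17, 2.16 and 2.36 for *Trpm3*, 2.37, 2.23 and 2.36 for *Cdkn1c* and 2.37, 2.03 and 2.53 for *Folr1*. Nearest to *Clcn3* were *Syf2*, EG668804 and *Insig1*, at 0.129, 0.218 and 0.256. Their ratios in mouse 2 were -2.31, -2.46 and -2.19, and the choice by distance fixes that they are close to that of *Clcn3*.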

How the data were processed

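The authors deposited scanner files from Agilent Feature Extraction 9.5.3.1, which hold the intensity of each spot in both channels, its local background and flags, and, per the file headers, the log10 ratio of processed red over green. A deposited table of log2 values, normalized between arrays by the authors with Aquantile in R 2.14.0, tracked the CPE channel (rank correlation 0.998, 0.998 and 0.9997) and served as an alternative.

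In R 4.3.3 with limma 3.58.1, intensities were corrected with normexp (offset 50) and loess normalized within arrays. Control spots and spots flagged as outliers were removed, and repeated spots were averaged by probe. A probe entered the test if CPE or reference stood well above background on each of the 3 arrays. The model was fitted with an intercept alone, with Benjamini-Hochberg adjustment over all tested probes. Expression classes used log2 mean red intensities without background correction, after Aquantile. Arrays give no read depth, and the number of 3 mice limits the precision. The scripts were tested on simulated data. Alternatives changed the background correction, normalization, filter, outlier spots, weights and mice. Probe positions come from the scanner files (mm8). Exons are not given, since mm8 gene models were not used.

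The members and lists were chosen with earlier results of these data known. The text names all members, of each pathway list the 3 largest called ratios in each direction, of marker lists given by more than counts the 2 largest, and the 3 genes nearest to *Clic6* and *Clcn3*. Others (*Otx2*, *Tyr*, *Rarres2*, *Ostm1*, *Clcn1*, *Cftr*, *Myh11*, *Rgs5*, *Pdgfrb*, *Cnn1*, *Atp6v1e1*, *Atp6v1a*) were named after their values were seen. Some genes of the list of other CLC and CLIC genes are not reported here, and no count or median is given for that list.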

Additional observations from a re-analysis of the deposited data

How the results depend on the processing

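With median centring in place of loess the median ratio of all tested probes moved from -0.04 to 0.09, and 67.0% of 5586 calls were higher in CPE, against 41.1% of 4462 with loess. Over all probes, the calls numbered 6756 with the scanner's own ratios, 1413 in a limma treat test against 2-fold, and 4029 to 5313 without 1 mouse. Member probes past the threshold numbered 3 as reported, 1 with treat, and 2 to 5 without 1 mouse. The higher ones (1 as reported) numbered 3 with median centring, 2 with outlier spots kept, 2 with only probes well above background in both channels, and 1 to 2 without 1 mouse. The lower ones (2 as reported) numbered 0 with median centring, 1 with scanner ratios, 0 with treat, and 0 to 3 without 1 mouse. Member genes called by their brightest probe numbered 2 as reported and 1 without mouse 2. The high class fell from 5 to 3 member probes when only probes well above background in CPE were ranked. The 1 called pair of probes became 0 with median centring and 0 without mouse 2, and without mouse 3 the *Clic4* pair lost its call while the *Clic6* pair gained one. Among other chloride channels, 3 were higher with median centring and 0 without mouse 1, against 1 as reported, and 8 partners of endosomes and lysosomes were higher with median centring, against 3.

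The mean ratio of *Clcn6* changed sign to -0.043 with median centring and -0.020 with array weights, and ran from -0.039 to 0.24 without 1 mouse. That of *Clcn7* became 0.39 and 0.0067, and ran from -0.20 to 0.0063 without 1 mouse. *Clcn4* ran from -0.22 to 0.26 without 1 mouse. The difference between the *Clcn2* probes became -0.11 with median centring and ran from -0.11 to 0.15 without 1 mouse, and that of *Clcn3* ran from -0.10 to 0.27. None of these was past the threshold, and the cause was not tested. Of the member probe ratios under alternatives, 140 kept their direction and side of the threshold, 7 changed sign, 8 gained the call and 7 lost it. The ratio set CPE against the reference within each array. No further pairing was possible because the mice form 1 group and their numbers pair nothing.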

Other observations

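Probes named only by a transcript accession lay outside the rule for members. Those described as *Clcn4* (AK016058 and AK086383) lay at percentiles 27.1 and 21.9 of the CPE channel, and that described as *Clic4* (AK085055) lay at 20.8. None passed the filter for the test.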
